A study of Homo sapiens with 54 samples.

Results

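The 10 genes described here encode parts of the NF-κB pathway that the pathway itself can switch on: BIRC3, TRAF1, NFKBIA, NFKBIE, TNFAIP3, TNFAIP2, RELB, NFKB1, NFKB2 and TNIP1. They were chosen by gene symbol, with earlier results of these data known, and all 10 were found among the 27470 rows of the deposited table. RNA was measured in 54 libraries, 3 for each of 18 conditions, from SUM1315 and MDA-MB-468 cells. Both are established triple negative breast cancer lines; SUM1315 carries mutant BRCA1 and MDA-MB-468 wild-type BRCA1. The study asked how acquired olaparib resistance affects the response to cisplatin (CDDP), a drug that crosslinks DNA. Olaparib inhibits PARP enzymes, which take part in DNA strand break repair.

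Parental SUM1315 cells were untreated or received 8 µM olaparib, 2 or 4 µM CDDP, or olaparib with either CDDP dose, overnight. Parental MDA-MB-468 cells were untreated or received 3 µM olaparib, 1 or 2.5 µM CDDP, or olaparib with either dose. The olaparib resistant derivatives, OlaR, stayed in 25 µM olaparib for SUM1315 and 15 µM for MDA-MB-468, alone or with the CDDP doses of their parental line. No OlaR library was free of olaparib, so resistance and the higher olaparib concentration cannot be told apart in comparisons with olaparib-treated parental cells. CDDP and olaparib doses also differ between the lines. The lines were compared only by the size of the change within each, and in those comparisons line and dose cannot be told apart. Nothing in the labels says that the 3 libraries of a condition came from separate cultures. The p-values thus measure the spread between libraries of a condition, pooled over all conditions fitted together.

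NF-κB is a family of dimeric transcription factors held in the cytoplasm by inhibitory IκB proteins. Receptors of the TNF family recruit TRAF adaptors and cIAP ubiquitin ligases, and the kinases they activate mark IκB for destruction, which frees the dimers to enter the nucleus. Among the genes then transcribed are IκB proteins, ubiquitin-editing enzymes and NF-κB subunits, which restrain or renew the signal, and genes that protect cells from death.

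NF-κB dimers bind κB sites, a family of related 10-base sequences. The κB consensus was searched on both strands of RefSeq promoter windows of GRCh38.p14, each holding 250 bases before and 50 after an annotated start. Windows were given for 8 of the 10 genes; NFKBIE and RELB had none. The consensus was found in 7 of 14 windows, belonging to 6 genes (BIRC3, NFKBIA, TNFAIP3, NFKB1, NFKB2 and TNIP1), against 11.3% of all 35116 windows. A match describes the letters only, and no match says only that they are not in this window. Sites of the first 4 of these genes are shown because their RNA carries the results below, each on the strand of its gene with the κB match, of either strand, in capitals. The BIRC3 run is the 250 bases before the start, chr11:102317234-102317483 on the plus strand, with a pair of matches. The other runs hold 30 bases each, at chr14:35404811-35404840 on the minus strand for NFKBIA, chr6:137867188-137867217 on the plus strand for TNFAIP3 and chr4:102501300-102501329 on the plus strand for NFKB1.
BIRC3: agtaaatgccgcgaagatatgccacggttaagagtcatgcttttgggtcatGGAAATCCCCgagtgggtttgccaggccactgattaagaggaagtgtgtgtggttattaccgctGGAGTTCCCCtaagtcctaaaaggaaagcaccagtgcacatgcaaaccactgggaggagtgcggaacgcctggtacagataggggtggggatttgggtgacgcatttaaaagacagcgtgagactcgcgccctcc
NFKBIA: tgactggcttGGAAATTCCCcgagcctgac
TNFAIP3: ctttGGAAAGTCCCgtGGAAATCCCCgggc
NFKB1: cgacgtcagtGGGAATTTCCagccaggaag
TNFAIP3 held a pair of matches within 67 to 46 bases before the annotated start of its window. That start lies inside the gene, whose first base is at chr6:137866349. The single match lay 81 to 72 bases before the start of NFKBIA and 49 to 40 bases before that of NFKB1. Another NFKB1 window, at chr4:102501684-102501983, held no match.

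Libraries held 2070301 to 9268162 reads, and OlaR libraries were shallower than parental ones, at 3446613 to 4665505 against 4977284 to 7540920 in SUM1315 and 2070301 to 4676284 against 5574767 to 9268162 in MDA-MB-468. Levels below are read counts that the authors adjusted to a common library size, given per library in the order of replicates 1, 2 and 3, or as mean ± SD (n = 3), and are not compared between genes. A gene was called where the adjusted p of limma was at most 0.05, and log2 fold changes, on the log2(value + 1) scale, are given ± SE. Replicate 3 of untreated, olaparib-treated and 2 µM CDDP-treated parental SUM1315 cells stood apart from the other libraries of its condition. In pairs with one of these 3 libraries, chi-square divided by its degrees of freedom was 8.264 to 20.58, against 1.586 to 6.896 in the other 48 pairs. By the SD of a library's deviation from its condition over 5777 genes, they ranged from 0.17 to 0.242 and the other SUM1315 libraries from 0.0999 to 0.181, so on that measure the 2 sets overlapped. EPCAM and KRT19 were at or near 0 in SUM1315, whose highest library held 4.61 and 4.56, while VIM ranged from 7930 to 13200. In MDA-MB-468 EPCAM ranged from 2630 to 3790 and VIM from 7.99 to 53.8. Other epithelial keratins were present in SUM1315, KRT18 at 231 to 598 and KRT8 at 17.7 to 154. In MDA-MB-468 these ranged from 584 to 833 and from 447 to 925. KRT5 ranged from 0 to 28.4 in SUM1315 and from 247 to 3760 in MDA-MB-468. The leukocyte marker PTPRC did not exceed 6.97 in either line, whereas PECAM1 ranged from 45 to 207 and COL1A1 from 132 to 796 in SUM1315. ESR1 ranged from 24.9 to 221 in MDA-MB-468. In these bulk samples, fewer cells with a transcript and less RNA per cell cannot be told apart.

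CDDP alone raised most of these genes in parental SUM1315 cells. At 2 µM, 6 of the 10 rose and 1 fell, where 19.4% of 13133 tested genes rose and 14.5% fell. At 4 µM, 8 rose and 2 fell, where 22.2% of all genes rose and 21.7% fell. The median log2 fold change of the 10 genes was 0.52 at 2 µM and 0.64 at 4 µM, against 0.015 and -0.003 over all tested genes. These comparisons share the untreated libraries. The 10 genes were chosen with earlier results of these data known, and the paper names BIRC3 and TRAF1 among top CDDP-affected genes of SUM1315 cells. The counts beside the shares of all genes are therefore descriptions and not a test of the list. Directly between doses, BIRC3, TRAF1, TNFAIP3 and NFKB2 were higher at 4 µM than at 2 µM and NFKBIA and TNFAIP2 lower, where 3.4% and 7.07% of all genes were.

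**Figure D1:**
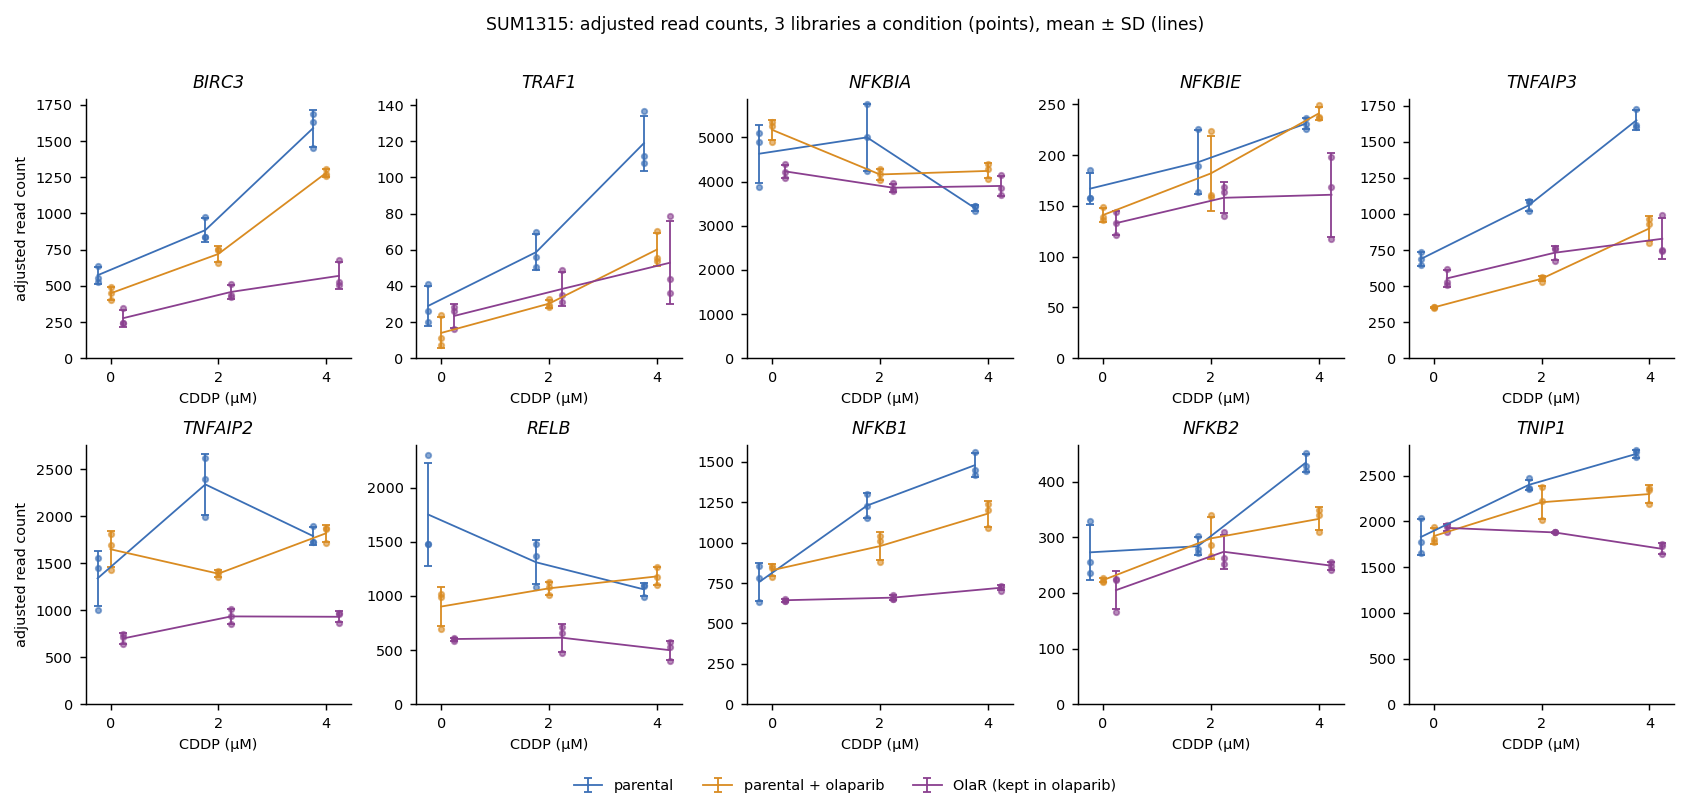
Adjusted read counts of the 10 genes in SUM1315 cells (vertical axes, starting at 0) against CDDP dose in µM (horizontal axes); points are libraries, lines and bars the mean ± SD of 3. BIRC3 and TNFAIP3 step up with dose in each of the 3 series, whereas NFKBIA and RELB are lower at 4 µM than without CDDP in parental cells without olaparib.

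BIRC3 encodes cIAP2, a ubiquitin ligase that limits cell death downstream of TNF receptors. Untreated SUM1315 libraries held 554, 525 and 639 adjusted BIRC3 reads, those at 2 µM CDDP 838, 837 and 978, and those at 4 µM 1690, 1450 and 1630. The 3 groups did not overlap. The mean thus went from 573 ± 59.3 to 885 ± 80.9 and 1590 ± 128, a log2 fold change of 0.63 ± 0.13 at 2 µM (adjusted p = 0.000189) and 1.47 ± 0.13 at 4 µM (adjusted p = 2.47e-11). The step from 2 to 4 µM was 0.84 ± 0.13 (adjusted p = 3.12e-05).

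TRAF1 encodes an adaptor that partners with TRAF2 and the cIAP proteins. Its counts were low, at 25.9, 19.8 and 41.2 in untreated SUM1315 libraries, 56.1, 69.6 and 50.3 at 2 µM CDDP and 137, 112 and 108 at 4 µM. No group overlapped another. The log2 fold change was 1.04 ± 0.34 at 2 µM (adjusted p = 0.0159) and 2.06 ± 0.34 at 4 µM (adjusted p = 7.3e-06). The call at 2 µM was lost without 2 µM replicate 2 (adjusted p = 0.0713) or untreated replicate 2 (adjusted p = 0.0891). The step between doses, 1.01 ± 0.34 (adjusted p = 0.048), was lost on leaving out any of its 6 libraries, with an adjusted p of up to 0.156.

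TNFAIP3, which encodes the ubiquitin-editing enzyme A20, and TNIP1, which encodes an A20-binding inhibitor, also rose. TNFAIP3 stood at 685, 643 and 736 in untreated libraries, 1080, 1090 and 1020 at 2 µM and 1620, 1730 and 1600 at 4 µM. These groups were again separate, with log2 fold changes of 0.63 ± 0.10 (adjusted p = 1.39e-05) and 1.26 ± 0.10 (adjusted p = 9.49e-12), and a step between doses of 0.64 ± 0.10 (adjusted p = 0.000123). TNIP1 stood at 1660, 1780 and 2040 in untreated libraries, 2370, 2470 and 2360 at 2 µM and 2780, 2760 and 2700 at 4 µM. It rose by 0.40 ± 0.08 (adjusted p = 0.000203) and 0.59 ± 0.08 (adjusted p = 3.16e-07), while the step between doses was 0.19 ± 0.08 (adjusted p = 0.123).

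Of the IκB genes, NFKBIA behaved unlike these, and NFKBIE rose at 4 µM. NFKBIA, which encodes IκBα, stood at 5100, 4900 and 3880 in untreated libraries, 5000, 5750 and 4240 at 2 µM and 3440, 3330 and 3440 at 4 µM. Untreated and 2 µM libraries overlapped, and all 4 µM libraries lay below both. The log2 fold change was 0.11 ± 0.09 at 2 µM (adjusted p = 0.389) and -0.43 ± 0.09 at 4 µM (adjusted p = 0.000337). Without the 3 libraries that stood apart, the latter was -0.56 (adjusted p = 7.01e-08). NFKBIE, which encodes IκBε, averaged 167 ± 15.6 untreated and 231 ± 5.65 at 4 µM, a rise of 0.47 ± 0.16 (adjusted p = 0.0193). That call was lost without 4 µM replicate 3 (adjusted p = 0.0543), untreated replicate 1 (adjusted p = 0.0624) or untreated replicate 3 (adjusted p = 0.0576).

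Among the subunits, NFKB1 and NFKB2, which encode the precursors of p50 and p52, rose and RELB fell. NFKB1 stood at 782, 858 and 631 in untreated libraries, 1230, 1300 and 1150 at 2 µM and 1450, 1560 and 1420 at 4 µM. It rose by 0.71 ± 0.10 (adjusted p = 5.8e-07) and 0.97 ± 0.10 (adjusted p = 5e-10). NFKB2 averaged 273 ± 48.9 untreated, 284 ± 16.1 at 2 µM and 434 ± 16.2 at 4 µM, with log2 fold changes of 0.07 ± 0.13 (adjusted p = 0.729) and 0.68 ± 0.13 (adjusted p = 8.01e-05).

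RELB, the transactivating partner of p52, stood at 1480, 1480 and 2300 in untreated libraries, so 1 of the 3 was far above the others. At 2 µM CDDP its libraries held 1480, 1370 and 1080, and at 4 µM 1100, 1090 and 994. All libraries at 4 µM lay below the untreated ones, while the highest at 2 µM met the lowest untreated one at 1480. The log2 fold change was -0.40 ± 0.16 at 2 µM (adjusted p = 0.0481) and -0.69 ± 0.16 at 4 µM (adjusted p = 0.000579). Without the 3 libraries that stood apart, it was -0.06 at 2 µM (adjusted p = 0.802) and -0.48 at 4 µM (adjusted p = 0.00186). The call at 2 µM was lost without untreated replicate 3 (-0.19, adjusted p = 0.401), 2 µM replicate 3 (-0.27, adjusted p = 0.232) or 2 µM replicate 2 (-0.44, adjusted p = 0.0613). TNFAIP2, a TNF-inducible gene of less defined function, was highest at the lower dose. It stood at 1450, 1560 and 1000 untreated, 2400, 2620 and 1990 at 2 µM and 1730, 1900 and 1730 at 4 µM, a rise of 0.82 ± 0.12 (adjusted p = 1.9e-06) and 0.45 ± 0.12 (adjusted p = 0.00291). The rise at 4 µM was lost without untreated replicate 3 (0.25, adjusted p = 0.0616). The fall between doses, -0.38 ± 0.12 (adjusted p = 0.0371), was lost without 2 µM replicate 1, 2 µM replicate 2 or any of the 4 µM libraries, with an adjusted p of up to 0.216, and was -0.49 without the 3 libraries that stood apart (adjusted p = 8.7e-05).

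Olaparib alone lowered 4 of the 10 genes in parental SUM1315 cells and raised 1, where 17.1% of all genes fell and 18.9% rose. TNFAIP3 libraries held 353, 354 and 348 reads with olaparib, all below the untreated range of 643 to 736. The log2 fold change was -0.96 ± 0.10 (adjusted p = 5.45e-09). RELB held 1020, 993 and 690, a log2 fold change of -0.95 ± 0.16 (adjusted p = 1.38e-05), which was -0.55 without the 3 libraries that stood apart (adjusted p = 0.00173). BIRC3 (404, 450 and 491 reads, -0.35 ± 0.13, adjusted p = 0.027), TRAF1 (23.7, 7.26 and 11, -1.09 ± 0.34, adjusted p = 0.0109) and TNFAIP2 (1690, 1810 and 1430, 0.32 ± 0.12, adjusted p = 0.0352) made up the other calls. None of these 3 was called without the libraries that stood apart (adjusted p = 0.0659, 0.185 and 0.0878). Each was also lost without untreated replicate 3 or olaparib replicate 2, and those of BIRC3 and TNFAIP2 without olaparib replicate 1, with an adjusted p of up to 0.134, 0.114 and 0.417 in that order.

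Added to CDDP, olaparib again lowered TNFAIP3. With olaparib and 2 µM CDDP the libraries held 531, 559 and 564 TNFAIP3 reads, and with olaparib and 4 µM CDDP 800, 968 and 933. Both groups lay wholly below the same dose of CDDP alone, by -0.94 ± 0.10 (adjusted p = 8.16e-08) and -0.88 ± 0.10 (adjusted p = 3.62e-07). At 2 µM CDDP, olaparib lowered 3 of the 10 genes, where 10.1% of all genes fell and 5.22% rose. The others were TNFAIP2 (-0.74 ± 0.12, adjusted p = 5.46e-05) and NFKB1 (-0.33 ± 0.10, adjusted p = 0.0169), the latter lost without 2 µM replicate 1, 2 µM replicate 2 or replicate 2 of the combination, with an adjusted p of up to 0.12. Without the 3 libraries that stood apart, 6 of the 10 were lower, with NFKBIA (-0.37, adjusted p = 0.000209), RELB (-0.41, adjusted p = 0.0127) and TRAF1 (-1.03, adjusted p = 0.0389) added. At 4 µM CDDP, olaparib lowered 3 and raised 1, where 6.52% of all genes fell and 6.32% rose. NFKB1 (-0.33 ± 0.10, adjusted p = 0.0198) and TNIP1 (-0.26 ± 0.08, adjusted p = 0.0306) were lower and NFKBIA was higher (0.32 ± 0.09, adjusted p = 0.0224). TNIP1 was lost without any of its 6 libraries, NFKBIA without all but olaparib with 4 µM CDDP replicate 1, and NFKB1 without 4 µM replicate 2 or combination replicate 3, with an adjusted p of up to 0.121, 0.0847 and 0.117.

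In the presence of olaparib, CDDP still raised the survival genes and TNFAIP3. At 2 µM CDDP added to olaparib, 3 of the 10 rose, where 2.09% of all genes rose and 1.67% fell. BIRC3 held 750, 755 and 655 reads (0.68 ± 0.13, adjusted p = 0.00165), TNFAIP3 rose by 0.65 ± 0.10 (adjusted p = 0.000315), and TRAF1 held 32.7, 28.5 and 29.5 (1.21 ± 0.34, adjusted p = 0.0373). TRAF1 was lost in 5 of 6 fits without a library, all but that without olaparib replicate 1, with an adjusted p of up to 0.239. Without the 3 libraries that stood apart, 7 genes were called, with 5 higher and 2 lower, the latter being NFKBIA (-0.35, adjusted p = 0.00118) and TNFAIP2 (-0.34, adjusted p = 0.0107).

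At 4 µM CDDP added to olaparib, 7 rose, where 4.35% of all genes rose and 4.09% fell. BIRC3 held 1270, 1310 and 1260 reads, a rise of 1.51 ± 0.13 over olaparib alone (adjusted p = 1.68e-10). TNFAIP3 rose by 1.35 ± 0.10 (adjusted p = 2.71e-11) and TRAF1, at 70.5, 53.9 and 55.7, by 2.17 ± 0.34 (adjusted p = 5.28e-05). NFKBIE (0.77 ± 0.16, adjusted p = 0.00228), NFKB1 (0.50 ± 0.10, adjusted p = 0.000677), NFKB2 (0.58 ± 0.13, adjusted p = 0.00441) and TNIP1 (0.32 ± 0.08, adjusted p = 0.00936) completed the 7. TNIP1 was lost without olaparib replicate 2 (0.29, adjusted p = 0.0544). NFKBIA, at 4050, 4390 and 4280, lay below all olaparib libraries, with a log2 fold change of -0.28 ± 0.09 (adjusted p = 0.054), and -0.32 without the libraries that stood apart (adjusted p = 0.00186).

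The effect of 4 µM CDDP with olaparib, minus its effect without, was called for 2 of the 10 genes, where 21.5% of all genes were called. RELB differed by 1.10 ± 0.22 (adjusted p = 0.000459; 0.70 without the libraries that stood apart, adjusted p = 0.00323), and NFKB1 by -0.47 ± 0.13 (adjusted p = 0.011). Without the libraries that stood apart, 3 genes were called, with TNIP1 (-0.37, adjusted p = 0.0146) added. For BIRC3 the difference was 0.04, with a 95% confidence interval of -0.32 to 0.40, and for TNFAIP3 0.09, with an interval of -0.21 to 0.39.

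OlaR SUM1315 cells had lower levels of several of these genes than olaparib-treated parental cells. The part of the lower depth of OlaR libraries in these differences was not tested. Of the 10, 5 were lower and 2 were higher, where 25.7% of all genes were lower and 21.6% higher. TNFAIP2 stood at 713, 749 and 641 in OlaR against 1690, 1810 and 1430 in olaparib-treated parental libraries, a log2 fold change of -1.23 ± 0.12 (adjusted p = 3.82e-10). BIRC3 stood at 242, 344 and 244 against 404, 450 and 491 (-0.71 ± 0.13, adjusted p = 2.02e-05), and RELB at 615, 604 and 587 against 1020, 993 and 690 (-0.56 ± 0.16, adjusted p = 0.00388). For all 3 genes every OlaR library lay below every parental one. NFKB1 (-0.37 ± 0.10, adjusted p = 0.00203) and NFKBIA (-0.29 ± 0.09, adjusted p = 0.012) were also lower. TNFAIP3 was higher, at 530, 618 and 510 against 353, 354 and 348 (0.65 ± 0.10, adjusted p = 4.36e-06). TRAF1 was called higher (0.82 ± 0.34, adjusted p = 0.0452), but OlaR libraries, at 26, 28.2 and 15.9, overlapped parental ones, at 23.7, 7.26 and 11, and the call was lost without OlaR replicate 1, OlaR replicate 2, olaparib replicate 2 or olaparib replicate 3 (adjusted p of up to 0.309).

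CDDP raised BIRC3 and TNFAIP3 in OlaR SUM1315 cells too. At 2 µM, 2 rose, where 0.548% of all genes rose and 0.876% fell. BIRC3 rose to 422, 516 and 438 (0.74 ± 0.13, adjusted p = 0.000789) and TNFAIP3 to 764, 675 and 754 (0.41 ± 0.10, adjusted p = 0.0373), the latter lost without OlaR replicate 1, OlaR replicate 3, or replicate 1 or replicate 3 at 2 µM (adjusted p of up to 0.166). At 4 µM, 4 rose, where 7.13% of all genes rose and 9.61% fell. BIRC3 held 676, 526 and 506 (1.05 ± 0.13, adjusted p = 2.74e-07) and TNFAIP3 741, 991 and 752 (0.57 ± 0.10, adjusted p = 0.000169). TRAF1 held 78.8, 35.8 and 43.8 (1.10 ± 0.34, adjusted p = 0.0219), and without the high replicate 1 the change was 0.78 (adjusted p = 0.174), or without OlaR replicate 3 0.86 (adjusted p = 0.128). TNFAIP2 held 862, 968 and 964 (0.41 ± 0.12, adjusted p = 0.0161), lost without OlaR replicate 3, or replicate 2 or replicate 3 at 4 µM (adjusted p of up to 0.0861).

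Tested directly, the effect of 4 µM CDDP differed between OlaR and olaparib-treated parental SUM1315 cells for 2 of the 10 genes, where 6.4% of all genes differed. The difference, OlaR minus parental, was -0.78 ± 0.15 for TNFAIP3 (adjusted p = 0.000917), which rose less in OlaR, and -0.50 ± 0.11 for TNIP1 (adjusted p = 0.00607). TNIP1 stood at 1640, 1750 and 1730 with CDDP in OlaR, against 1960, 1880 and 1940 without it, and at 2190, 2340 and 2370 against 1940, 1770 and 1810 in olaparib-treated parental cells. Its libraries thus lay lower with CDDP in OlaR, where the fall was not called, and higher with CDDP in the parental cells. For BIRC3 the difference was -0.47, with an interval of -0.83 to -0.11 (adjusted p = 0.108). Without the 3 libraries that stood apart, 5 genes were called, with BIRC3 (-0.54, adjusted p = 0.0361), RELB (-0.51, adjusted p = 0.0414) and TNFAIP2 (0.35, adjusted p = 0.0499) added.

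Ordered by mean, BIRC3 in SUM1315 went from 1590 at 4 µM CDDP through 1280 with olaparib added, 885 at 2 µM and 720 with olaparib and 2 µM to 573 untreated, each group apart from the next. The next groups, from untreated through both CDDP doses in OlaR to olaparib alone, overlapped their neighbours, and OlaR cells without CDDP were lowest at 277. TNFAIP3 was also highest at 4 µM CDDP (1650) and then at 2 µM (1060), and lowest with olaparib alone (352), and neighbouring groups from 900 with olaparib and 4 µM CDDP to 688 untreated overlapped, as did OlaR cells (553) and olaparib with 2 µM CDDP (551).

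**Figure D2:**
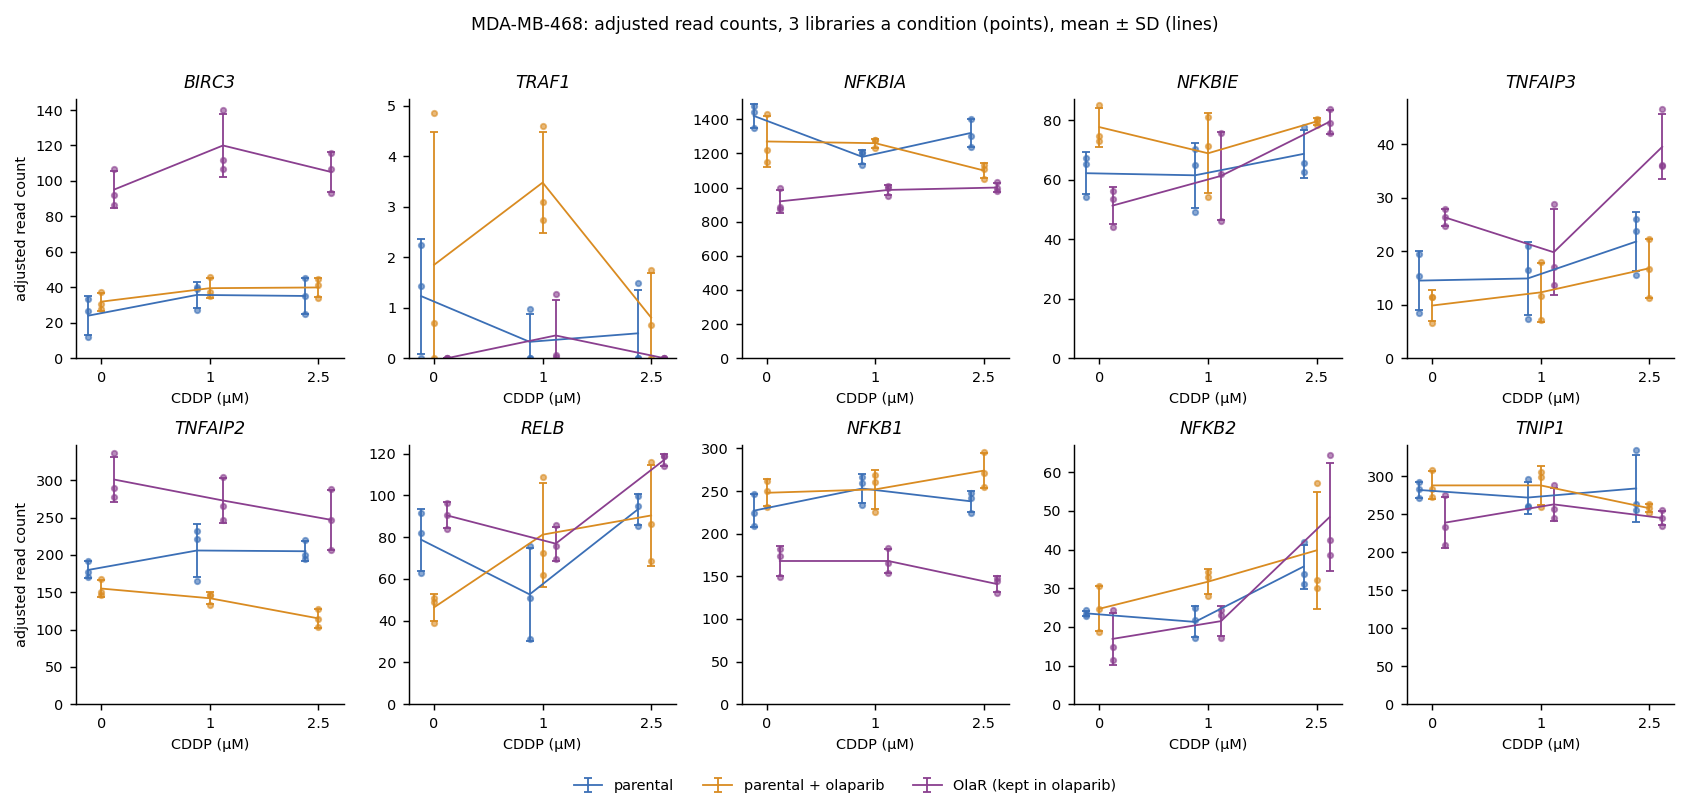
Adjusted read counts of the 10 genes in MDA-MB-468 cells (vertical axes, starting at 0) against CDDP dose in µM (horizontal axes, doses equally spaced); points are libraries, lines and bars the mean ± SD of 3. Without CDDP, BIRC3 and TNFAIP2 are higher and NFKBIA and NFKB1 lower in OlaR than in olaparib-treated parental cells.

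In MDA-MB-468 cells 9 of the 10 genes could be tested. TRAF1 did not pass the filter on low values: its 27 libraries held 0 to 7 reads before adjustment, and 15 held 0. CDDP alone lowered 2 of the 9 genes at 1 µM, where 9.41% of 13012 tested genes fell and 10.6% rose. NFKBIA held 1130, 1200 and 1210 reads against 1440, 1480 and 1350 untreated, a log2 fold change of -0.27 ± 0.07 (adjusted p = 0.00235). RELB held 31.3, 50.9 and 75.6 against 62.7, 82.2 and 91.6 (-0.65 ± 0.22, adjusted p = 0.029). The RELB groups overlapped, and the call was lost without 1 µM replicate 1, 1 µM replicate 2, untreated replicate 2 or untreated replicate 3 (adjusted p of up to 0.365).

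At 2.5 µM CDDP, limma called 0 of the 9 genes, where 13.3% of all genes rose and 11.8% fell. BIRC3, at 45.1, 25 and 35.2 against 33.3, 12.2 and 26.6, had a log2 fold change of 0.60, with an interval of 0.09 to 1.11 (adjusted p = 0.0789). TNFAIP3, at 15.5, 26.1 and 23.8 against 19.5, 8.5 and 15.4, had 0.60, with an interval of -0.19 to 1.38 (adjusted p = 0.287). At an unadjusted p under 0.05 limma gave 1 gene, BIRC3, and edgeR and DESeq2 on the recovered reads called 0. Between doses, 1 gene was higher at 2.5 µM, where 3.62% of all genes were higher and 3.34% lower. That gene was RELB, at 99.7, 95 and 85.3 with 2.5 µM (0.90 ± 0.22, adjusted p = 0.00517; 0.58 and 0.142 without 1 µM replicate 1).

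Olaparib alone lowered RELB in MDA-MB-468 cells, 1 of the 9 genes, where 9.11% of all genes fell and 12.4% rose. RELB held 39.1, 48.9 and 51, all below the untreated libraries (-0.75 ± 0.22, adjusted p = 0.0098). The call was lost without olaparib replicate 1 (adjusted p = 0.0628) or untreated replicate 3 (adjusted p = 0.0672). Added to CDDP, olaparib lowered TNFAIP2. At 1 µM CDDP this was 1 gene of 9, where 2.03% of all genes fell and 1.85% rose, and at 2.5 µM 2 fell, where 7.29% of all genes fell and 4.63% rose. TNFAIP2 held 128, 114 and 103 reads with olaparib and 2.5 µM CDDP against 194, 200 and 220 with CDDP alone (-0.83 ± 0.13, adjusted p = 2.91e-06). At 1 µM the change was -0.52 ± 0.13 (adjusted p = 0.00988), lost without 1 µM replicate 1 (adjusted p = 0.114) or replicate 2 (adjusted p = 0.0663). NFKBIA fell with olaparib at 2.5 µM CDDP, to 1050, 1110 and 1130 from 1400, 1300 and 1240 (-0.26 ± 0.07, adjusted p = 0.00541; 0.0612 without 2.5 µM replicate 1).

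CDDP added to olaparib raised RELB in MDA-MB-468 cells. At 1 µM this was 1 of 9 genes, where 2.3% of all genes rose and 2.97% fell. RELB held 109, 61.9 and 72.3 (0.76 ± 0.22, adjusted p = 0.0265), lost without combination replicate 1, olaparib replicate 1 or olaparib replicate 2 (adjusted p of up to 0.259). At 2.5 µM 1 gene rose and 2 fell, where 10.1% rose and 13.1% fell. RELB held 86.4, 68.5 and 116 (0.93 ± 0.22, adjusted p = 0.00104), TNFAIP2 changed by -0.43 ± 0.13 (adjusted p = 0.00896) and NFKBIA by -0.20 ± 0.07 (adjusted p = 0.0209). TNFAIP2 was lost without combination replicate 3 (adjusted p = 0.0713) or olaparib replicate 1 (adjusted p = 0.0547), and NFKBIA without combination replicate 1 (adjusted p = 0.0972) or olaparib replicate 3 (adjusted p = 0.281). The effect of 2.5 µM CDDP with olaparib, minus that without, was called for 1 of the 9 genes, where 20.2% of all genes were called. That gene was TNFAIP2 (-0.62 ± 0.18, adjusted p = 0.00937).

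OlaR MDA-MB-468 cells differed from olaparib-treated parental cells in 8 of the 9 genes, 4 higher and 4 lower, where 23.6% of all genes were higher and 27.9% lower. Here too, the part of the lower depth of OlaR libraries was not tested. BIRC3 stood at 107, 86.4 and 92.3 in OlaR against 30.5, 27.7 and 37.5 in olaparib-treated parental libraries (1.55 ± 0.25, adjusted p = 9.43e-07). TNFAIP2 stood at 336, 290 and 278 against 168, 150 and 147 (0.95 ± 0.13, adjusted p = 8.13e-09), and RELB at 96.5, 90.8 and 84 against 39.1, 48.9 and 51 (0.96 ± 0.22, adjusted p = 0.000232). TNFAIP3, at 26.3, 24.7 and 27.8 against 11.5, 6.59 and 11.4, was higher by 1.37 ± 0.39 (adjusted p = 0.00286). Before adjustment its libraries held few reads, 22, 20 and 23 against 19, 10 and 14. These 4 genes had no OlaR library within the parental range.

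NFKBIA (998, 875 and 884 against 1220, 1150 and 1430, -0.46 ± 0.07, adjusted p = 6.75e-08) and NFKB1 (182, 174 and 149 against 250, 262 and 231, -0.56 ± 0.11, adjusted p = 2.84e-05) were lower in OlaR MDA-MB-468 cells without overlap. NFKBIE (-0.59 ± 0.20, adjusted p = 0.0096) was lost without OlaR replicate 3 (adjusted p = 0.0602). TNIP1 (-0.27 ± 0.11, adjusted p = 0.027) overlapped and was lost without OlaR replicate 2, OlaR replicate 3 or olaparib replicate 2 (adjusted p of up to 0.196).

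In OlaR MDA-MB-468 cells limma called 0 of the 9 genes at 1 µM CDDP, where 1.84% of all genes rose and 2.91% fell. At an unadjusted p under 0.05 limma gave 0, and edgeR and DESeq2 called 0. At 2.5 µM 2 rose, where 7.43% of all genes rose and 11.2% fell. NFKB2 held 38.5, 64.4 and 42.5 against 24.5, 14.9 and 11.4 (1.49 ± 0.30, adjusted p = 0.000226), with 9 to 53 reads a library before adjustment. NFKBIE held 83.7, 75.7 and 79.1 against 53.6, 56.1 and 44.1 (0.63 ± 0.20, adjusted p = 0.0182), lost without OlaR replicate 3 (adjusted p = 0.0966) or 2.5 µM replicate 1 (adjusted p = 0.0644). The effect of 2.5 µM CDDP in OlaR, minus that in olaparib-treated parental cells, was called for 1 of the 9 genes, where 15% of all genes were called. That gene was NFKBIA (0.33 ± 0.09, adjusted p = 0.011; 0.24 and 0.0687 without olaparib replicate 3).

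**Figure D3:**
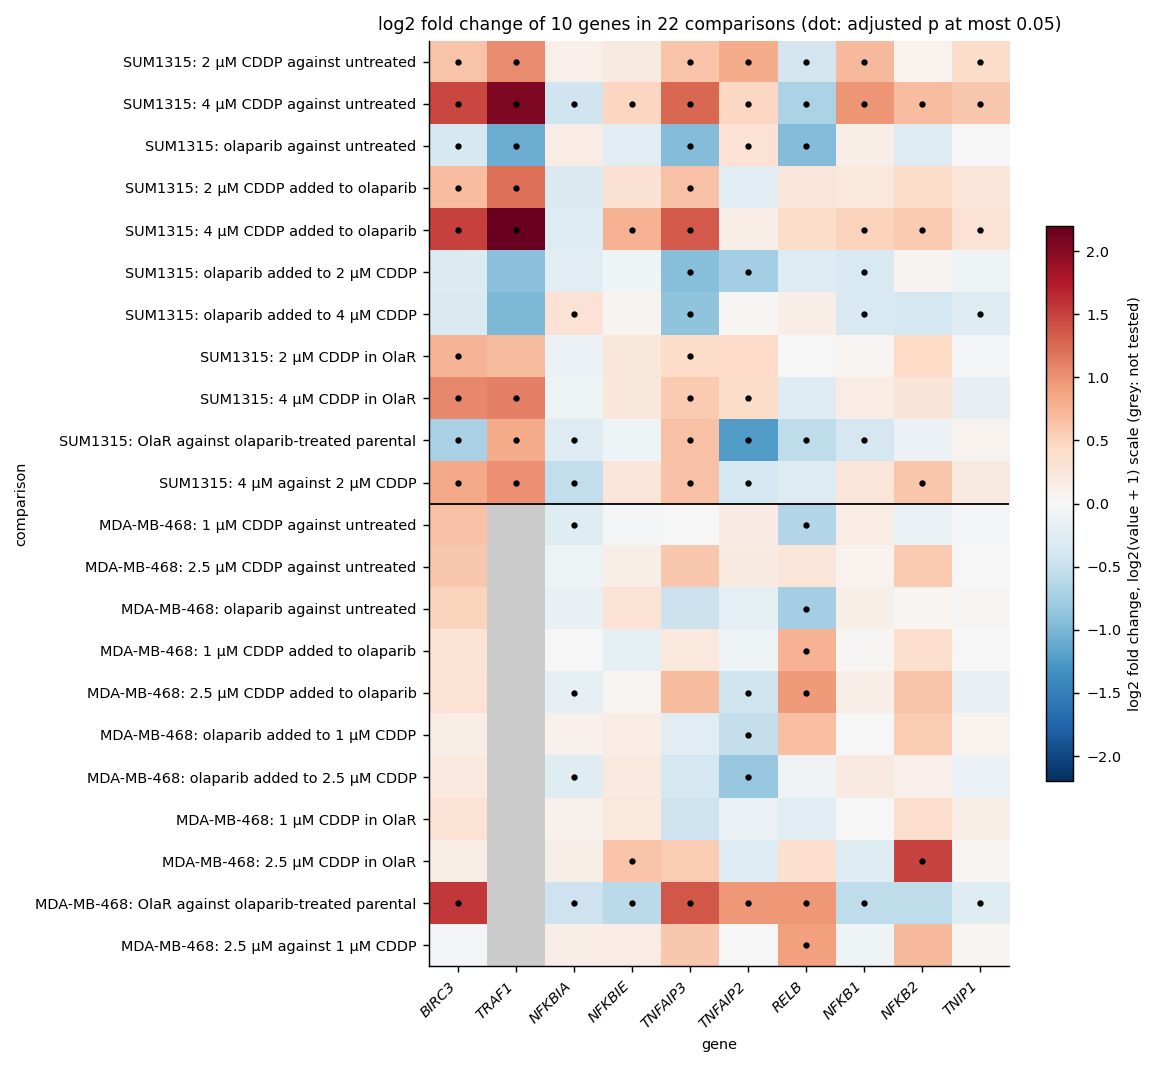
Log2 fold changes of the 10 genes (columns) in the 22 comparisons of conditions within a line (rows); red is higher and blue lower in the first-named condition, a dot marks an adjusted p of at most 0.05, and grey marks TRAF1 in MDA-MB-468, which was not tested. At 4 µM CDDP against untreated SUM1315 cells every gene carries a dot, 8 red and 2 blue, while the 2.5 µM row of MDA-MB-468 carries none.

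The change with the higher CDDP dose, 4 µM in SUM1315 and 2.5 µM in MDA-MB-468, differed between the lines for several genes. In this and the other comparisons between lines, line and dose cannot be told apart. Against untreated cells, the SUM1315 change minus the MDA-MB-468 change was called for 6 of 10 genes, where 27.5% of 14460 tested genes were called. It was 0.90 ± 0.13 for NFKB1 (adjusted p = 6.54e-07), 0.59 ± 0.12 for TNIP1 (adjusted p = 0.000224) and 0.87 ± 0.29 for BIRC3 (adjusted p = 0.0182), so the change was more positive in SUM1315. It was -0.95 ± 0.29 for RELB (adjusted p = 0.0122) and -0.32 ± 0.11 for NFKBIA (adjusted p = 0.0313). TRAF1 was the other call, and its difference is not given because of its few reads in MDA-MB-468. It passed the filter of the fit of both lines only through SUM1315 libraries. Its call is therefore not read as a result, here or in the counts between lines below that include it. BIRC3 was lost without MDA-MB-468 2.5 µM replicate 2, untreated replicate 1 or untreated replicate 3 (adjusted p of up to 0.12), and RELB without MDA-MB-468 untreated replicate 1 (adjusted p = 0.0531) or SUM1315 untreated replicate 3 (adjusted p = 0.0677). NFKBIA was lost without MDA-MB-468 2.5 µM replicate 1 or untreated replicate 3, or SUM1315 4 µM replicate 2, untreated replicate 1 or untreated replicate 2 (adjusted p of up to 0.123). Without the 3 SUM1315 libraries that stood apart, the RELB difference was -0.74 and was not called (adjusted p = 0.0536).

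With CDDP added to olaparib, the lines differed for 3 genes, where 1.87% of all genes did. BIRC3 differed by 1.20 ± 0.29 (adjusted p = 0.0155) and TNIP1 by 0.48 ± 0.12 (adjusted p = 0.0261), besides TRAF1. BIRC3 was lost without MDA-MB-468 olaparib replicate 3 (adjusted p = 0.0565) or replicate 2 of the MDA-MB-468 combination (adjusted p = 0.0554), and TNIP1 in 7 of 12 fits without a library (adjusted p of up to 0.0917). In OlaR cells CDDP differed for 3 genes, where 5.44% did: TNFAIP2 by 0.70 ± 0.18 (adjusted p = 0.0127), NFKB1 by 0.42 ± 0.13 (adjusted p = 0.0497) and NFKB2 by -1.20 ± 0.30 (adjusted p = 0.0109). NFKB1 was lost in 10 of 12 fits without a library (adjusted p of up to 0.138), NFKB2 without MDA-MB-468 OlaR replicate 3 (adjusted p = 0.0522) or 2.5 µM replicate 2 (adjusted p = 0.0507), and TNFAIP2 without the latter (adjusted p = 0.0551).

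OlaR against olaparib-treated parental cells differed between the lines for 5 of the 10 genes, where 41.7% of all genes did. The difference was -2.26 ± 0.29 for BIRC3 (adjusted p = 1.05e-08), -2.18 ± 0.18 for TNFAIP2 (adjusted p = 6.45e-14) and -1.52 ± 0.29 for RELB (adjusted p = 4e-05). Each of these 3 was lower in OlaR SUM1315 and higher in OlaR MDA-MB-468 cells. TNIP1 (0.34 ± 0.12, adjusted p = 0.0224) was lost without MDA-MB-468 OlaR replicate 2, MDA-MB-468 olaparib replicate 2 or SUM1315 olaparib replicate 2 (adjusted p of up to 0.11), and TRAF1 is not given for its few reads. Olaparib against untreated cells differed for 3 genes, where 19.9% did: BIRC3 by -0.84 ± 0.29 (adjusted p = 0.03), NFKBIA by 0.34 ± 0.11 (adjusted p = 0.028) and TNFAIP2 by 0.53 ± 0.18 (adjusted p = 0.0271). All 3 calls were lost without the libraries that stood apart (adjusted p = 0.0774, 0.0723 and 0.0694), and in 4, 7 and 6 of 12 fits without 1 library, in each case including that without SUM1315 untreated replicate 3.

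**Figure D4:**
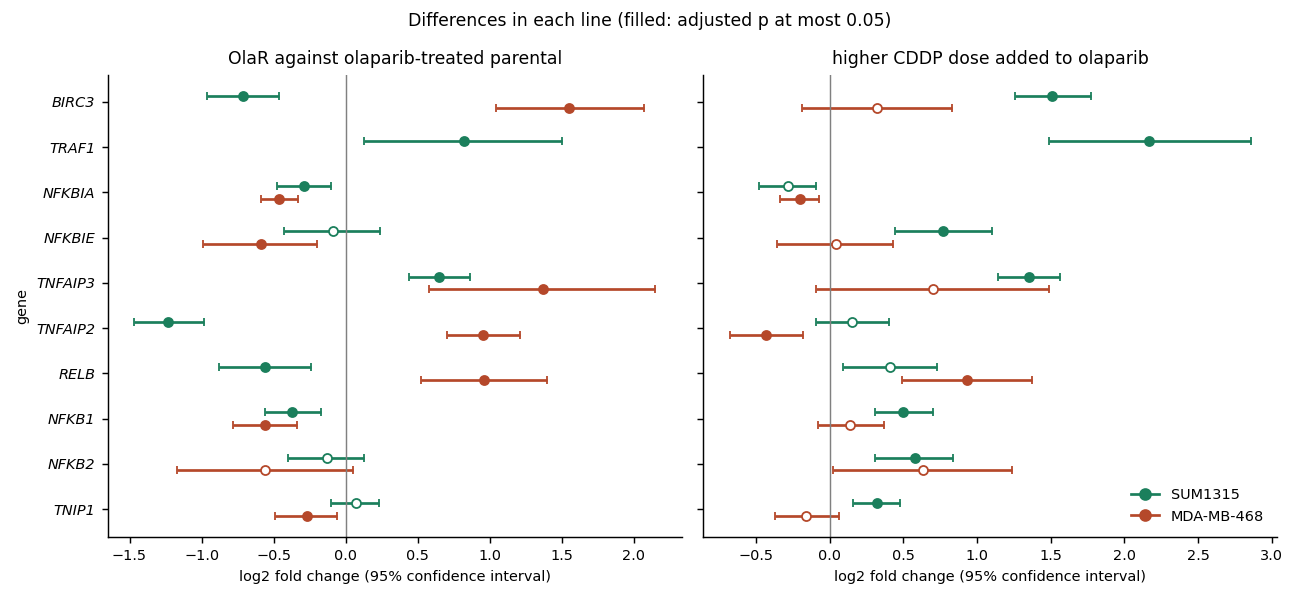
Log2 fold changes of the 10 genes with 95% confidence intervals (horizontal axes) in SUM1315 (green) and MDA-MB-468 (brown-red), for OlaR against olaparib-treated parental cells (left) and for the higher CDDP dose added to olaparib (right); filled points have an adjusted p of at most 0.05 and TRAF1 has no MDA-MB-468 point. On the left BIRC3, TNFAIP2 and RELB lie on opposite sides of 0 in the 2 lines, whereas TNFAIP3 lies above 0 and NFKBIA and NFKB1 below 0 in both.

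Of 48 other genes of the pathway, 47 could be tested in SUM1315 and 33 in MDA-MB-468. With 4 µM CDDP against untreated SUM1315 cells, 17 rose and 9 fell, where 22.2% of all genes tested rose and 21.7% fell. The chemokines CXCL1, from 577 to 3740 (2.73 ± 0.11, adjusted p = 2.21e-19), and CXCL3, from 1060 to 3490 (1.74 ± 0.12, adjusted p = 4.13e-13), rose, as did the cytokine IL6, from 429 to 1830 (2.16 ± 0.26, adjusted p = 4.8e-08). BCL2L1, which encodes the survival protein BCL-xL, fell from 1520 to 513 (-1.53 ± 0.14, adjusted p = 2.19e-10). NFKBIZ, which encodes a nuclear IκB protein, rose from 318 to 730 (1.19 ± 0.11, adjusted p = 1.65e-10). With olaparib alone 18 fell and 5 rose, where 17.1% of all genes fell and 18.9% rose. With 4 µM CDDP added to olaparib 15 rose and 2 fell, beside 4.35% and 4.09% of all genes. In OlaR cells 14 rose and 4 fell with 4 µM CDDP, beside 7.13% and 9.61%.

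In OlaR against olaparib-treated parental SUM1315 cells, 16 of the 47 other pathway genes were higher and 11 lower, beside 21.6% and 25.7% of all genes tested. IL1B, from 618 to 3240 (2.40 ± 0.13, adjusted p = 2.35e-16), and BCL2A1, a survival gene of the BCL2 family, from 117 to 650 (2.47 ± 0.13, adjusted p = 2.4e-16), were among the higher ones. In MDA-MB-468 cells, 5 of 33 rose and 6 fell with 2.5 µM CDDP alone, where 13.3% of all genes rose and 11.8% fell. In OlaR against olaparib-treated parental MDA-MB-468 cells, 13 were higher and 7 lower, beside 23.6% and 27.9% of all genes. The subunit gene RELA was lower there, from 1010 to 607 (-0.74 ± 0.07, adjusted p = 3.91e-13), and IER3, an early response gene, was higher, from 6700 to 9640 (0.53 ± 0.06, adjusted p = 9.6e-10).

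Across the 18 condition means, centred within each line, the genes most like BIRC3 among 9223 with a mean of at least 30 in both lines were RFC1 (Pearson's r = 0.937), ANAPC13 (0.921) and ACD (0.919). Those most like NFKBIA were GID8 (0.937), TMEM187 (0.93) and FLJ10038 (0.923), and those most like NFKB2 were BAK1 (0.863), DBR1 (0.839) and ING1 (0.799). These correlations are descriptions over 18 means that share the contrasts above, and the highest of 9223 values is high by selection. Among all pairs of the 10 genes, over the 9 condition means of SUM1315, the highest r was 0.979, between TRAF1 and TNFAIP3. The lowest was -0.656, between TRAF1 and NFKBIA. Over those of MDA-MB-468, r was 0.901 between NFKBIA and TNIP1 and -0.922 between BIRC3 and NFKBIA.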

How the data were processed

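QuantSeq 3′ RNA libraries were sequenced and processed by the authors with CASAVA 1.8.2, FastQC, STAR, HTSeq and edgeR on hg38, per the labels. The deposited signal values are adjusted read counts, which edgeR scaled within each condition to a common library size of 5585170 at a dispersion of 0.01039. Scaling whole reads forward in this way returned all 1483380 deposited values (100%), so whole reads were recovered. Of 27470 genes, 4082 had no read.

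Genes reaching 10 adjusted reads in 3 or more libraries were tested with limma 3.58.1 in R 4.3.3 on log2(value + 1), with all 27 libraries of a line, or all 54 for differences between lines, in a fit. P-values were adjusted over all tested genes by the Benjamini-Hochberg method, and confidence intervals cover 95%. Alternatives were a fold change of at least 2, a pseudocount of 5, no filter, edgeR 4.0.16 and DESeq2 1.42.0 on recovered reads, fits on the compared conditions alone, a replicate block, and leaving out libraries. Untreated lines were not tested against each other, since the sources used here do not say which libraries shared a sequencing batch. The authors' comparison tables hold fold changes and p-values and were not used. The replicate numbers did not pair libraries. The 10 genes and the 48 pathway genes were chosen with earlier results of these data known. All 10 genes were named; other pathway genes were named from the 5 smallest p-values of a comparison, and like genes as the 3 highest correlations. Scripts were tested on simulated data.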

Additional observations from a re-analysis of the deposited data

Results flagged for a closer look

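A CDDP, olaparib or resistance effect that differed between 2 settings, by a test of the difference itself, was found 23 times among the 9 genes tested in both lines. Over all tested genes, the share called ranged from 1.87% to 41.7% between these tests, as given beside each count above. The number of flags alone therefore does not set these genes apart from others. TRAF1 was left out because it was not tested in MDA-MB-468, and outlying samples were not among the flags. The 3 SUM1315 libraries that stood apart from their condition are described above. No explanation was tested.

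Within SUM1315, the effect of 4 µM CDDP in OlaR minus that in olaparib-treated parental cells was -0.78 for TNFAIP3 and -0.50 for TNIP1 on the log2 scale. The same effect with olaparib minus without was 1.10 for RELB and -0.47 for NFKB1. Within MDA-MB-468, the effect of 2.5 µM CDDP in OlaR minus that in olaparib-treated parental cells was 0.33 for NFKBIA, and with olaparib minus without it was -0.62 for TNFAIP2.

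The others are differences between lines, SUM1315 minus MDA-MB-468. For olaparib they were -0.84 for BIRC3, 0.34 for NFKBIA and 0.53 for TNFAIP2. For the higher CDDP dose they were 0.87 for BIRC3, -0.32 for NFKBIA, -0.95 for RELB, 0.90 for NFKB1 and 0.59 for TNIP1. For the higher CDDP dose added to olaparib they were 1.20 for BIRC3 and 0.48 for TNIP1. For that dose in OlaR cells they were 0.70 for TNFAIP2, 0.42 for NFKB1 and -1.20 for NFKB2. For OlaR against olaparib-treated parental cells they were -2.26 for BIRC3, -2.18 for TNFAIP2, -1.52 for RELB and 0.34 for TNIP1. The differences for olaparib, and that of RELB for the higher CDDP dose, were not called without the SUM1315 libraries that stood apart. Several of the other differences were lost on leaving out 1 library, as given above.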

How the results depend on the processing

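Of 105 calls, DESeq2 on recovered reads kept 102, edgeR 98 with either scaling, a pseudocount of 5 kept 103, no filter 94, the compared conditions alone 80 and a fold change of at least 2 25. No called value changed sign. A sign change was counted as a reversal only where 1 of the values was called. Leaving out 1 library at a time lost 45 of the 105 calls at least once. The replicate block kept 104 calls, lost 1 and added 4, with 7 becoming 6 calls for 2 µM CDDP in SUM1315. Same-numbered libraries correlated from -0.098 to 0.163 in SUM1315 and from -0.047 to 0.043 in MDA-MB-468. With 3 libraries a condition and 2070301 to 9268162 reads, low genes such as TRAF1 were the least precise. Causes of the changes below were not tested.

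With a fold change of at least 2, the SUM1315 counts became 1 for 2 µM CDDP, 3 for 4 µM, 1 for olaparib, 1 and 3 for 2 and 4 µM added to olaparib, 0 for olaparib added to either dose, 0 and 2 for 2 and 4 µM in OlaR, 1 for OlaR against parental, 1 between doses, and 0 and 1 for the OlaR and olaparib differences. The MDA-MB-468 counts became 2 for OlaR against parental, 1 for 2.5 µM in OlaR and 0 for the other comparisons with calls. Between lines they became 1 for CDDP, which was TRAF1, 1 for CDDP in OlaR and 0 for olaparib. These 0 counts follow from the added fold limit, and the calls by limma and the other tools are given above.

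DESeq2 gave 6 calls for 2 µM CDDP added to olaparib in SUM1315, 2 for olaparib in MDA-MB-468 and 5 between lines for CDDP added to olaparib. edgeR, with either scaling, gave 1 for 2 µM CDDP in OlaR SUM1315, and in MDA-MB-468 2 for olaparib and 2 for the olaparib difference. Without a filter, MDA-MB-468 gave 1 for 1 µM CDDP and 0 for 1 µM added to olaparib. On the compared conditions alone, SUM1315 gave 2 for olaparib, 7 for olaparib added to 4 µM and 0 for 2 µM in OlaR, MDA-MB-468 gave 1 for 1 µM, 0 for 1 µM added to olaparib and 0 for olaparib added to 1 µM, and the lines gave 0 for olaparib. Without the 3 libraries that stood apart, a choice made after seeing the data, SUM1315 gave 2 for olaparib, 7 for 2 µM added to olaparib, 6 for olaparib added to 2 µM and 5 for the OlaR difference, and the lines gave 0 for olaparib. With 1 mismatch allowed, 14 of 14 promoter windows held the consensus, as did 69.4% of all windows.

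Leaving out 1 library at a time, calls in SUM1315 ranged from 5 to 7 for 2 µM CDDP, 8 to 10 for 4 µM, 2 to 6 for olaparib, 2 to 3 and 6 to 8 for 2 and 4 µM added to olaparib, 2 to 4 and 1 to 3 for olaparib added to 2 and 4 µM, 1 to 2 and 2 to 4 in OlaR, 6 to 7 for OlaR against parental, 4 to 5 between doses and 2 to 3 for each difference. In MDA-MB-468 they ranged from 1 to 3 for 1 µM, 0 to 1 for 2.5 µM, 0 to 2 for olaparib, 0 to 1 and 2 to 3 for 1 and 2.5 µM added to olaparib, 0 to 2 and 1 to 2 for olaparib added to 1 and 2.5 µM, 6 to 9 for OlaR against parental, 0 to 1 between doses and 0 to 2 for the OlaR difference. Between lines they ranged from 0 to 3 for olaparib, 4 to 6 for CDDP, 1 to 3 for CDDP added to olaparib, 1 to 3 in OlaR and 3 to 6 for OlaR against parental.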
